A study of Rattus norvegicus with 6 samples.

Results

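Oxidative phosphorylation genes of the neonatal rat ovary were followed across 6 arrays, 3 from ovaries treated with the neurotrophin NT3 and 3 from untreated ovaries. They were all genes whose only symbol in the array annotation begins with Nduf, Uqcr, Atp5 or Cox4 to Cox8, or is Sdha, Sdhb, Sdhc, Sdhd or Cyc1. This gave 87 of the 14217 genes named by a single symbol. Complex I had 36 genes and a further 6 for its assembly factors (the Ndufaf genes), complex II had 4, complex III had 8, complex IV had 17 and complex V had 16. Each gene was read from its probe set with the highest mean log2 signal. Choice by symbol also takes in genes that encode no core subunit: the assembly factors, the pseudogene Cox6c-ps1, the ATP synthase inhibitor gene Atp5if1, and Cox7a2l, whose product joins complexes into larger assemblies. Ndufa4 is counted under complex I by its name, although its product is now assigned to complex IV.

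Whole ovaries of female Sprague-Dawley rats aged 4 days were kept on floating filters for 48 h. The NT3 group received recombinant human NT3 at 50 ng/ml, and the control group received no factor. Both groups shared the same medium with albumin, ascorbic acid, transferrin and antibiotics. Each sample pooled 2 to 3 ovaries. The labels call the replicates biological and name neither animals nor litters. The p-values here therefore measure the spread among these samples alone, which may be partly technical.

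Oxidative phosphorylation is the last stage of respiration in the inner mitochondrial membrane. Complexes I and II pass electrons from NADH and succinate to ubiquinone, complex III passes them to cytochrome c, and complex IV to oxygen, while complex V (ATP synthase) uses the proton gradient built by complexes I, III and IV. Most subunits are encoded in the nucleus and imported, and a few are encoded in mitochondrial DNA. Oocytes carry a large store of mitochondria, and granulosa cells around them supply metabolites, so a whole ovary mixes the transcripts of both with those of the stroma.

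The values are MAS5 signals, a linear measure of brightness per probe set, scaled so that the trimmed mean was 210.1 on every array. Array medians were 69.0 to 74.4 in NT3 and 71.1 to 75.0 in control ovaries. The number of arrays limits the precision, and signals of different probe sets cannot be set against each other. Control replicate 2 stood apart in RNA quality: its ratio of 3′ to 5′ signal was 6.83 for beta-actin, against 2.78 to 2.91 in the NT3 arrays and 2.42 and 2.60 in the other controls. Its ratio for Gapdh was 1.70, against 1.21 to 1.25 in the NT3 arrays and 1.09 and 1.14 in the other controls. Results are therefore given with and without this array. All 8 oocyte markers in the annotation and all 8 granulosa markers passed the signal filter, among them Zp2 and Zp3 of the egg coat. Fewer cells of a type and less RNA per cell cannot be told apart in such samples.

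No oxidative phosphorylation gene passed the test for a difference between NT3 and control ovaries. Of the 84 that passed the filter on low signals, 41 were higher in NT3 ovaries (49.8% of all tested probe sets were) and 43 were lower. Their median log2 fold change was -0.001, against -0.008 over all 10600 tested genes. Limma called 0 of the 84 at an adjusted p under 0.05, beside 0% of all 18625 tested probe sets. At an unadjusted p under 0.05 it called 0 of the 84, beside 1.29% of all probe sets, and the lowest unadjusted p among the 84 was 0.245. A fit that blocks on replicate number gave 0 members again, beside 2.15%, with a lowest unadjusted limma p of 0.151 among the members. Their median standard error was 0.094 in that fit, against 0.131 without the block. The shares of 1.29% and 2.15% lie below the 0.05 that evenly spread p-values would give, so p-values ran high in both fits. The lack of calls therefore does not show equal levels. The standard errors and intervals given for genes come from fits without the block.

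The estimates were small as well. Log2 fold changes ran from -0.27 to 0.16, and 69 of the 84 lay within 0.1 of 0, which is 82.1% against 55.2% of all tested genes. The standard error exceeded the estimate in 74. In 80 of 84 the 95% interval lay within a 1.5-fold change in either direction, or 95.2% against 72.3% of all tested genes, and all 84 lay within 2-fold. The 4 whose intervals reached past 1.5-fold were Cox6a2, Cox4i2, Cox6c-ps1 and Ndufaf1, which had low signals. Most of the 84 were bright, with a median signal of 2004.1 against a filter of 41.3, and 64 lay above 1000. Their median standard error was 0.131, against 0.155 over all tested genes. The genes compared were not matched for signal, so these shares do not set the members apart. Markers of stromal cells were measured beside them: all 8 had a log2 fold change above 0, with a median of 0.14 and 0 calls, and their summed signal was 28562.6 to 31257.5 in NT3 ovaries and 27287.1 to 27888.6 in control ovaries. Of 6 tested macrophage markers 5 lay above 0, with a median of 0.23, and the 8 in the annotation summed to 1809.9 to 2121.2 in NT3 ovaries and 1675.7 to 1960.3 in control ovaries. Endothelial markers leaned the other way, with 0 of 5 above 0, a median of -0.10 and sums of 1640.6 to 1971.2 in NT3 ovaries and 1739.6 to 2041.2 in control ovaries. So did 3 tested red blood cell precursor markers, with 0 above 0, a median of -0.21 and a sum over the 4 in the annotation of 2016.0 to 2817.8 in NT3 ovaries and 2640.6 to 2919.4 in control ovaries. Such sums mostly follow the brightest probe sets. Hbb alone had 1905.3 to 2685.4 in NT3 and 2526.8 to 2745.9 in control ovaries. Without control replicate 2 the medians were 0.10 for stromal, 0.18 for macrophage, -0.11 for endothelial and -0.26 for red blood cell precursor markers. In that fit 7 of 8, 5 of 6, 0 of 5 and 0 of 3 of them lay above 0. None of these markers was called in either fit, and the part of their levels in the members' values was not tested.

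**Figure D1:**
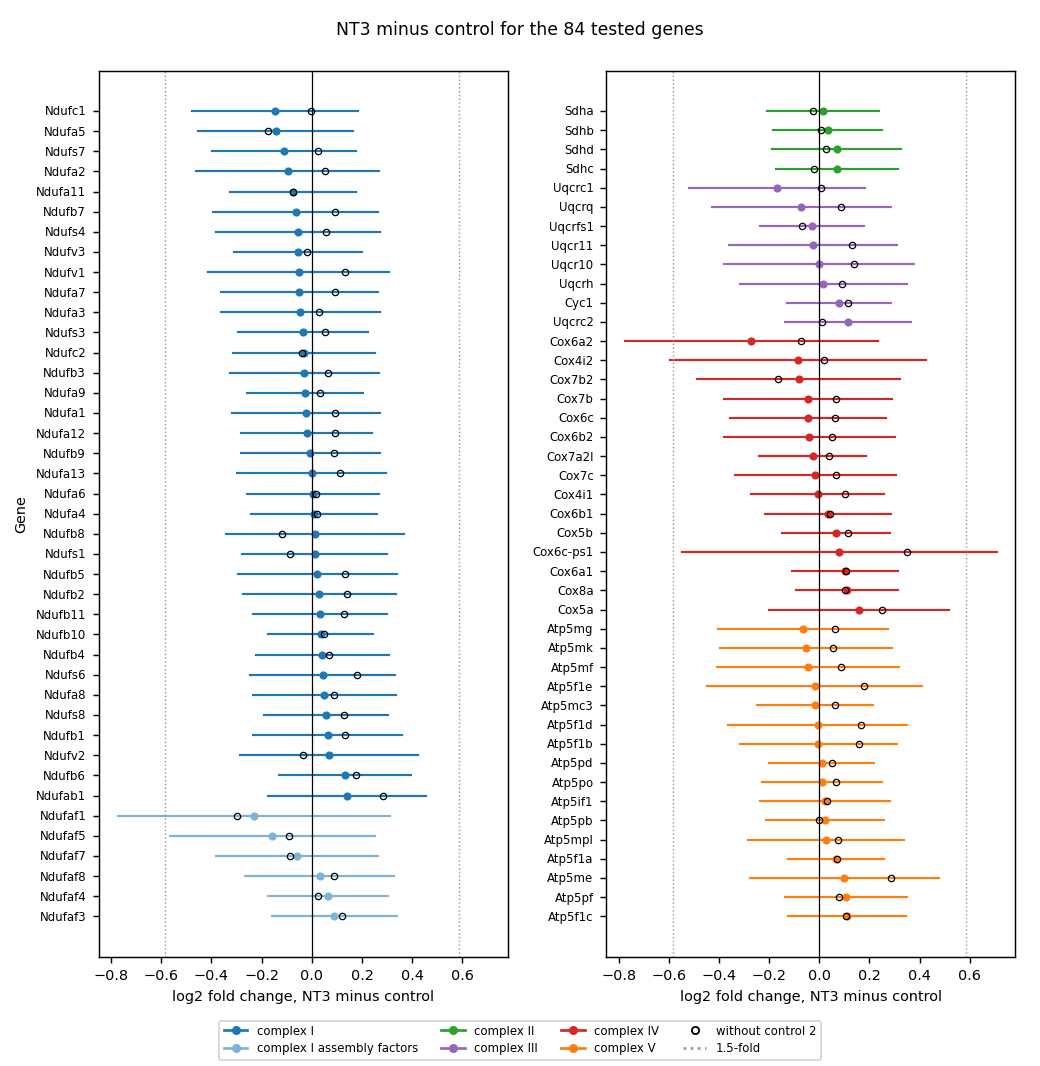
Log2 fold change (NT3 minus control) of the 84 tested genes on the horizontal axis, 1 gene per row, coloured by complex; filled points are limma estimates with all 6 arrays, lines their 95% intervals, open circles the estimates without control replicate 2, and dotted lines 1.5-fold. Nearly all filled points lie close to 0, and 32 open circles have moved from below 0 to above it.

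Differences between replicates of the same group were larger than those between the groups, and many members shared them. Each gene's log2 signal was taken relative to its own mean over the 6 arrays, and the median over the 84 genes was -0.077, 0.070 and 0.005 in NT3 replicates 1, 2 and 3, against -0.18, 0.13 and 0.049 in control replicates 1, 2 and 3. The extremes were thus 2 control arrays, 0.31 apart, while the medians over all genes spanned 0.076. Control replicate 1 was the lowest of the 6 arrays in 58 of the 84 genes (69%), beside 14.1% of all tested probe sets and 1757 of the 10600 tested genes. Control replicate 2 was the highest in 47 (56%), beside 31.4% of all tested probe sets and 3792 of the 10600 tested genes. The same array carried the high 3′ to 5′ ratios given above. Over the 8 oocyte markers the medians lay in the opposite sense in these control arrays. They were 0.036, -0.19 and 0.11 in NT3 replicates 1, 2 and 3 and 0.18, -0.13 and 0.16 in control replicates 1, 2 and 3. Single markers differed, as Zp2 was highest of the 6 arrays in control replicate 2 (4981.0) and Ooep lowest in control replicate 1 (3427.1). The 8 markers summed to 13339.9 to 16392.4 in NT3 ovaries and 14880.6 to 16256.9 in control ovaries. In control replicate 2 the medians were also below 0 for granulosa (-0.092), stromal (-0.104), macrophage (-0.166) and red blood cell precursor markers (-0.105). They were above 0 there for endothelial (0.156), muscle (0.106) and fat markers (0.164). In control replicate 1 granulosa and red blood cell precursor markers were at 0.055 and 0.235, and macrophage markers at -0.176. The part of RNA quality and of the transcripts of oocytes or other cell types in this pattern was not tested.

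**Figure D2:**
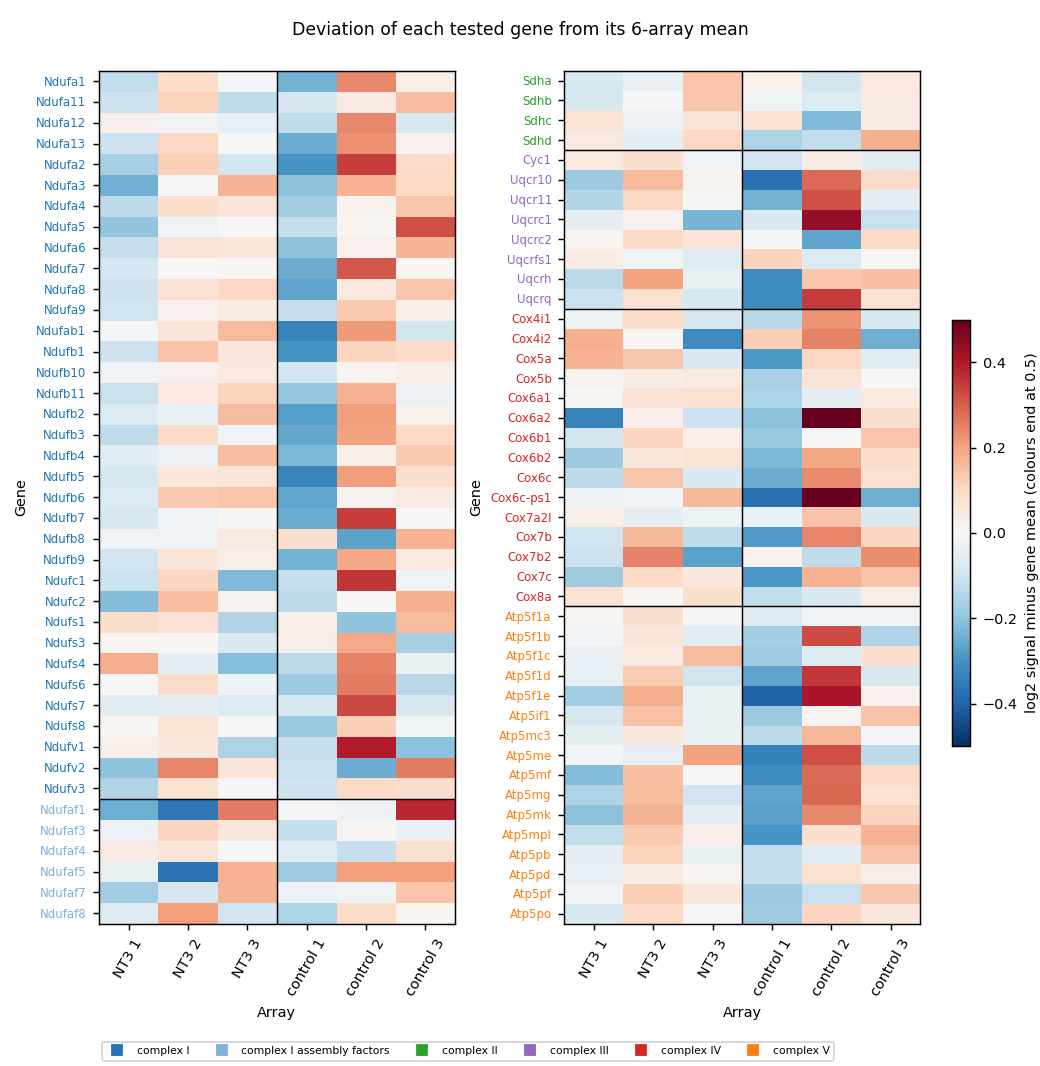
Log2 signal of each tested gene (rows, named and coloured by complex) on each array (columns, NT3 left of control) minus the gene's mean over 6 arrays; red is above and blue below that mean, and colours end at 0.5. Control replicate 1 is blue in most rows and control replicate 2 red in most, whereas the rows of Sdha, Sdhb, Sdhc and Sdhd are pale or blue in control replicate 2.

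Which way the genes leaned depended on single arrays. Without control replicate 2, 68 of 84 were higher in NT3 ovaries, beside 49% of all probe sets and 52.5% of all genes, and 16 were lower. The median log2 fold change was then 0.065, against 0.009 over all tested genes. The oocyte markers had 0 of 8 higher in that fit, with a median of -0.21, against 3 of 8 and -0.049 with all arrays. Without control replicate 1, 21 were higher and 63 lower, with a median of -0.088. Leaving out NT3 replicate 1 gave 61 higher and 23 lower, and leaving out NT3 replicate 2 gave 29 and 55. Limma called 0 members at an adjusted p under 0.05 in each of these fits. Among arrays of the same replicate number, NT3 exceeded control in 68 of 84 genes for number 1, but in 33 for number 2 and 31 for number 3, with median differences of 0.11, -0.072 and -0.033.

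With all 6 arrays, the groups did not overlap in 1 of the 84 genes, Atp5f1a, with NT3 higher, beside 2.62% of all tested probe sets higher, and in 0 with NT3 lower, beside 3.21%. Without control replicate 2, they did not overlap in 12 with NT3 higher, beside 8.81%, and in 1 with NT3 lower, beside 9.65%. In that fit 2 members, Ndufab1 and Atp5me, had an unadjusted p under 0.05, beside 3.52% of all probe sets and 1.51% with NT3 higher, and none had an adjusted p below 0.999.

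**Figure D3:**
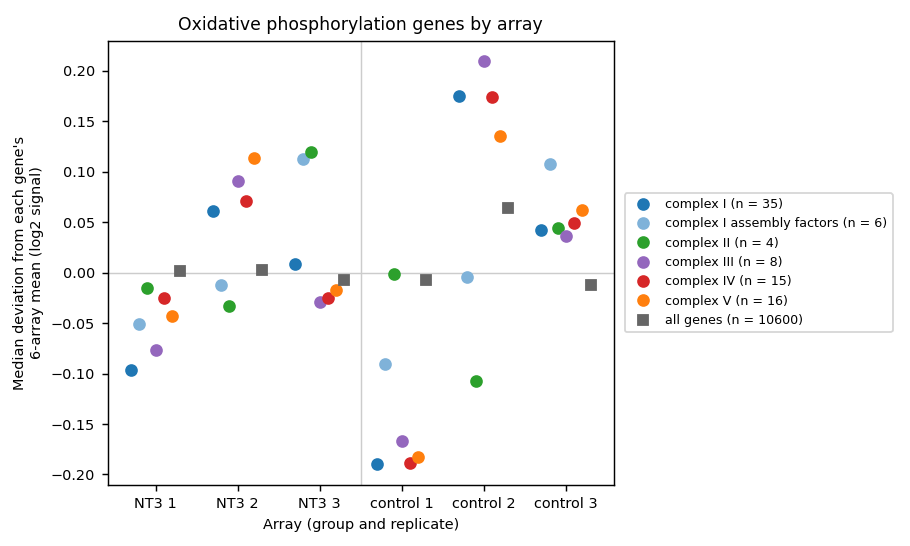
Median deviation from each gene's 6-array mean (log2 signal, vertical axis) on each array (horizontal axis, NT3 left of control) for each complex and for all tested genes (grey squares); points are shifted sideways for legibility. Complexes I, III, IV and V lie together, lowest in control replicate 1 (-0.19 to -0.17) and highest in control replicate 2 (0.14 to 0.21), while complex II is at -0.107 in control replicate 2.

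Complex I, the NADH dehydrogenase, had 35 tested genes. In NT3 ovaries 16 of them were higher and 19 lower, and the median log2 fold change was -0.006, or 0.063 without control replicate 2. Signals below are given for replicates 1, 2 and 3 of each group, and fold changes are on the log2 scale, NT3 minus control, with their standard errors. Ndufv1 encodes the subunit that binds NADH and FMN, and its signals were 1091, 1112 and 962 in NT3 ovaries, against 991, 1411 and 931 in control ovaries. Control replicate 2 was the high array there, the other 5 lay close together, and the log2 fold change of -0.053 ± 0.16 became 0.13 without it. Ndufv2, an iron-sulfur subunit of the same module, had 1849.8, 2524 and 2219 in NT3 ovaries, against 1970.2, 1794 and 2540.4 in control ovaries. Here control replicate 2 was instead the lowest, and the log2 fold change was 0.069 ± 0.16, or -0.037 without it. Ndufs1, the largest iron-sulfur subunit, had 697, 689 and 592 in NT3 ovaries, against 667, 569 and 731 in control ovaries, a log2 fold change of 0.012 ± 0.13. It too was lowest in control replicate 2, the array in which its partner Ndufv1 was highest.

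The subunits that line the path to ubiquinone gave small estimates too. Ndufs3 had signals of 856, 854 and 808 in NT3 ovaries, against 865, 969.8 and 757 in control ovaries, and a log2 fold change of -0.035 ± 0.12. Ndufs7, which holds the last iron-sulfur cluster before ubiquinone, had 986, 990.4 and 974 in NT3 ovaries, against 966, 1283 and 966 in control ovaries. The arrays were nearly equal except control replicate 2, which was high. The log2 fold change was -0.11 ± 0.13 and came to 0.026 when that array was left out. Ndufs8, a ferredoxin-like subunit, had 893, 931 and 889 in NT3 ovaries, against 778, 964 and 879.6 in control ovaries, and a log2 fold change of 0.055 ± 0.11. In all 3 of these genes the NT3 arrays lay within the range of the controls.

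Among the accessory subunits of complex I, the lowest unadjusted limma p-values on the higher side belonged to Ndufb6 and Ndufab1, at 0.286 and 0.338. Ndufb6, of the membrane arm, had 1327, 1522 and 1531 in NT3 ovaries, against 1161, 1412 and 1432 in control ovaries, a log2 fold change of 0.13 ± 0.12. Ndufab1 encodes the mitochondrial acyl carrier protein, which also serves fatty acid and lipoate synthesis, and had 1956, 2054 and 2198 in NT3 ovaries, against 1562, 2282 and 1849.7 in control ovaries. The 3 NT3 arrays lay above control replicates 1 and 3 but below control replicate 2. The log2 fold change of Ndufab1 was 0.14 ± 0.14. Leaving out control replicate 2 made it 0.28, at an unadjusted limma p of 0.0215, which adjustment over all probe sets took to 0.999. On the lower side, Ndufc1, a small subunit of the membrane arm, had 923, 1070.5 and 852 in NT3 ovaries, against 917, 1271 and 979 in control ovaries, and Ndufa5, of the peripheral arm, had 480.0, 545 and 549 in NT3 ovaries, against 507, 555 and 688 in control ovaries. Their log2 fold changes were -0.15 ± 0.15 and -0.14 ± 0.14, and that of Ndufc1 came to -0.005 without control replicate 2. The other 25 tested complex I genes had log2 fold changes of -0.096 to 0.064 with all arrays and of -0.12 to 0.18 without control replicate 2. Ndufa4l2, a paralogue of Ndufa4 known to be induced by low oxygen, was too dim for the filter, at 58.9, 18.6 and 13.4 in NT3 ovaries, against 29.2, 5.6 and 17.0 in control ovaries, and had no test.

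The 6 assembly factor genes of complex I, whose products build the complex without staying in it, had log2 fold changes on both sides of 0. Ndufaf1, which acts on the membrane arm, had 53.3, 49.3 and 75.3 in NT3 ovaries, against 62.8, 62.0 and 82.0 in control ovaries, with a log2 fold change of -0.23 ± 0.24 at these low signals. Its groups overlapped, and the 95% interval ran from -0.77 to 0.31. Ndufaf5, which hydroxylates Ndufs7, had 224, 178 and 259.5 in NT3 ovaries, against 204, 266 and 265 in control ovaries, and its partner gene Ndufaf8 had 372, 448 and 364 in NT3 ovaries, against 348, 415 and 393 in control ovaries. NT3 replicate 2 was the lowest array for Ndufaf5 and the highest for Ndufaf8, and the log2 fold changes were -0.16 ± 0.18 and 0.032 ± 0.13. Ndufaf3 and Ndufaf4, which act together on the ubiquinone module, had 0.090 and 0.066, and Ndufaf7, an arginine methyltransferase gene, had -0.060. Unlike the subunits of complex I, these 6 genes had their highest median deviation, 0.11, in NT3 replicate 3 and control replicate 3, and -0.004 in control replicate 2.

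Complex II, succinate dehydrogenase, is also an enzyme of the citric acid cycle and is the complex encoded wholly in the nucleus. All 4 of its genes had a log2 fold change above 0, between 0.016 and 0.071, and without control replicate 2 these lay 2 above and 2 below 0. Sdha, the flavoprotein that oxidises succinate, had 2174, 2232 and 2522 in NT3 ovaries, against 2323, 2152 and 2368 in control ovaries, and a log2 fold change of 0.016 ± 0.098. Its iron-sulfur partner Sdhb had 1993, 2102 and 2319.6 in NT3 ovaries, against 2076, 2009 and 2170.3 in control ovaries, and 0.034 ± 0.096. The 6 values of both genes lay within a narrow band, and the groups overlapped. Sdhc, a membrane anchor, had 1705, 1593 and 1700.0 in NT3 ovaries, against 1711, 1394 and 1670.2 in control ovaries, with control replicate 2 lowest. The other anchor gene, Sdhd, had 2527, 2374 and 2631 in NT3 ovaries, against 2195, 2249 and 2769 in control ovaries, with control replicate 3 highest. Their log2 fold changes were 0.071 ± 0.11 and 0.069 ± 0.11.

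Complex II differed from complexes I, III, IV and V in the median of its array pattern. Its median deviation in control replicate 2 was -0.11, whereas those of complexes I, III, IV and V were 0.18, 0.21, 0.17 and 0.14. Relative to the mean of control replicates 1 and 3, control replicate 2 was 0.13 lower for the median complex II gene and 0.21 higher for the median of all 84, against 0.079 higher over all tested genes. None of the 4 was highest in that array, and 3 were below both other controls. That held for 11 of all 84 members, among them 3 of complex I and 2 of complex III, and for 3462 of the 10600 tested genes. This contrast rests on 4 genes and 1 array and was not tested.

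Complex III, the cytochrome bc1 complex, had 8 tested genes. In NT3 ovaries 3 were higher and 5 lower, and their median log2 fold change was -0.014, or 0.087 without control replicate 2. Cyc1, which encodes cytochrome c1, had 1594, 1634 and 1519 in NT3 ovaries, against 1439, 1578 and 1483 in control ovaries, and a log2 fold change of 0.078 ± 0.092, with a single control array inside the NT3 range. Uqcrfs1, the Rieske iron-sulfur protein gene, had 2953, 2832 and 2757 in NT3 ovaries, against 3102, 2744 and 2875 in control ovaries, and -0.029 ± 0.092. For both of these electron-carrying subunit genes the estimate was smaller than its standard error, and the groups overlapped. The core protein genes Uqcrc1 and Uqcrc2 had the lowest p-values of the complex in opposite directions. Uqcrc1 had 1384, 1452 and 1217 in NT3 ovaries, against 1358, 1935 and 1324 in control ovaries, and Uqcrc2 had 3027, 3211 and 3142 in NT3 ovaries, against 2991, 2504 and 3220.2 in control ovaries. Control replicate 2 was the highest array for Uqcrc1 and the lowest for Uqcrc2, and without it both differences were near 0. The log2 fold change of Uqcrc1 was -0.17 ± 0.15 with it and 0.007 without it, and that of Uqcrc2 0.11 ± 0.11 and 0.010. The second Uqcrc2 probe set was low in the same array, at 333.6, against 656.6 to 1234.3 in the NT3 arrays and 947.1 and 1080.6 in the other controls. Uqcrq, long known as the ubiquinone-binding protein gene, had 2319, 2637 and 2374 in NT3 ovaries, against 2014, 3183 and 2629 in control ovaries, with a log2 fold change of -0.072 ± 0.16, and Uqcrh, the hinge protein gene, had 0.016 ± 0.15. Uqcr10 and Uqcr11, the smallest subunits, had -0.002 and -0.026, or 0.14 and 0.13 without control replicate 2.

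Complex IV, cytochrome c oxidase, had 15 tested genes. In NT3 ovaries 6 were higher and 9 lower, and their median log2 fold change was -0.016, or 0.067 without control replicate 2. Cox4i1, the ubiquitous form of its largest nuclear subunit, had 5558, 6030.3 and 5344 in NT3 ovaries, against 5129, 6606 and 5366 in control ovaries, and a log2 fold change of -0.007 ± 0.12. Cox5a had 196, 191 and 165 in NT3 ovaries, against 142, 186 and 167 in control ovaries, and 0.16 ± 0.16, the highest estimate among the 84. Another probe set, left out because the annotation gives it to both Cox5a and an unnamed locus, had signals of 2915 to 2969 in NT3 ovaries and 2836 to 3663 in control ovaries and a log2 fold change of -0.080, so the direction of Cox5a is uncertain. Cox8a had 2805, 2679.9 and 2808 in NT3 ovaries, against 2444, 2519.9 and 2719 in control ovaries, with NT3 replicates 1 and 3 above all controls. Its log2 fold change of 0.11 ± 0.090 had the lowest unadjusted limma p of all 84 genes, 0.245. Cox6a1, the form of subunit VIa found outside muscle, had 2792, 2920.4 and 2929 in NT3 ovaries, against 2493, 2693 and 2876 in control ovaries, with a log2 fold change of 0.10 ± 0.093. The other 7 tested genes of the complex, Cox5b, Cox6b1, Cox6c, Cox6c-ps1, Cox7a2l, Cox7b and Cox7c, had log2 fold changes of -0.045 to 0.080, or 0.038 to 0.35 without control replicate 2.

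Several complex IV subunits have forms made chiefly in particular tissues, and of the muscle forms only Cox6a2 passed the signal filter. Cox6a2, the heart and skeletal muscle form, had 81.0, 105 and 95.0 in NT3 ovaries, against 88.7, 148 and 108 in control ovaries. Its log2 fold change of -0.27 ± 0.22 was the lowest of the 84, and came to -0.074 without control replicate 2, the highest array. Cox8b and Cox7a1, the other muscle forms, which brown fat also makes, were too dim for the filter and had no test. Cox7a1 had 29.9, 33.7 and 27.6 in NT3 ovaries, against 31.8, 14.0 and 44.1 in control ovaries, and Cox8b 1.4, 1.9 and 2.0 in NT3 ovaries, against 11.1, 10.4 and 2.7 in control ovaries. Cox8b was lower in all 3 NT3 arrays than in the controls, at signals far below the filter of 41.3. Of the 15 muscle markers in the annotation, 3 passed the filter, Tnnc1, Actn3 and Tnni2, and the myosin genes Myh2, Myh3, Myh4, Myh6, Myh7 and Myh8 were at 1.3 to 25.2. The 15 summed to 908.5 to 945.9 in NT3 and 908.3 to 1033.5 in control ovaries. Most of this was Tnnc1, at 663.7 to 701.6 in NT3 and 664.3 to 735.8 in control ovaries. Of the 10 fat markers 5 passed, and the 10 summed to 315.5 to 476.0 in NT3 and 355.7 to 517.5 in control ovaries, with the brown fat gene Ucp1 at 2.8 to 21.2.

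The remaining forms gave no clearer difference. Cox4i2, known from lung and from oxygen-sensing smooth muscle, had 79.9, 71.4 and 56.6 in NT3 ovaries, against 76.9, 83.9 and 59.7 in control ovaries, and a log2 fold change of -0.085 ± 0.23. The testis forms Cox6b2 and Cox7b2 had 244, 288 and 290.2 in NT3 ovaries, against 237, 317 and 294 in control ovaries, and 160.4, 205 and 143 in NT3 ovaries, against 174, 158 and 202 in control ovaries. Their log2 fold changes were -0.039 ± 0.15 and -0.082 ± 0.18, with overlapping groups in both.

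**Figure D4:**
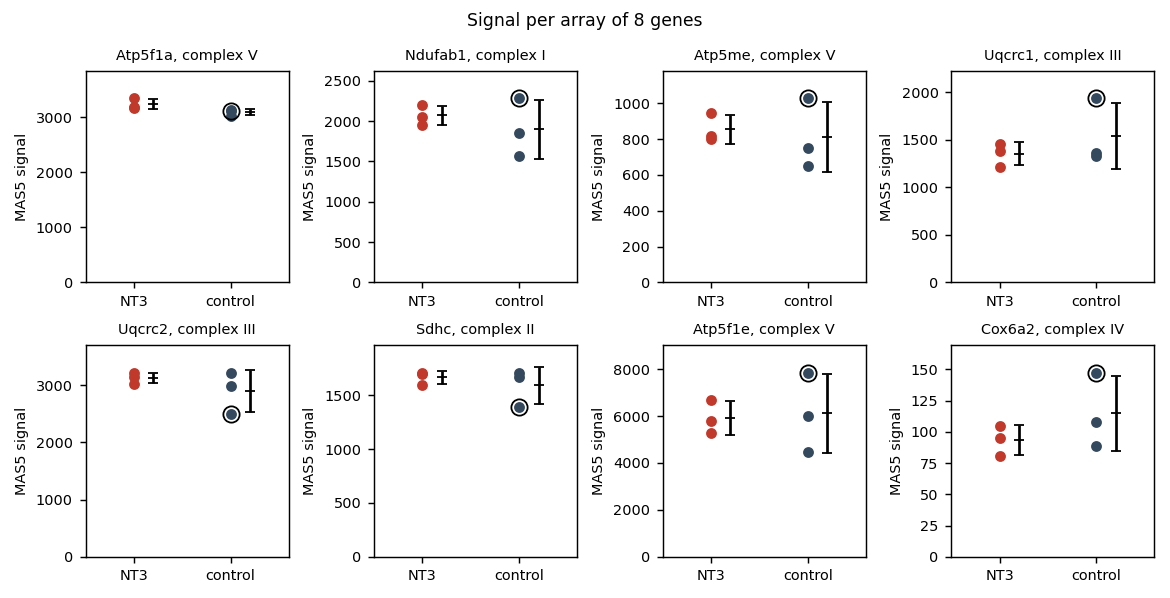
MAS5 signal (vertical axes, from 0) of 8 genes on each array; red points are NT3 and dark points control arrays, the ringed point is control replicate 2, and bars give mean ± SD (n = 3 each). Control replicate 2 is the highest point for Uqcrc1, Atp5f1e, Ndufab1, Atp5me and Cox6a2 and the lowest for Uqcrc2 and Sdhc, whereas the 6 values of Atp5f1a lie within 3028 to 3348.

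Complex V, the ATP synthase, had 16 tested genes. In NT3 ovaries 9 were higher and 7 lower, and their median log2 fold change was 0.010, or 0.073 without control replicate 2. Control replicate 1 was the lowest of the 6 arrays in all 16, and control replicate 2 the highest in 10. Of the catalytic head, Atp5f1a, the alpha subunit gene, had 3195, 3348 and 3179.8 in NT3 ovaries, against 3028, 3120.2 and 3138 in control ovaries, every NT3 array above every control. The difference was small, with means of 3241 ± 93.3 in NT3 and 3095 ± 59.1 in control ovaries (SD, n = 3 each), a log2 fold change of 0.066 ± 0.085 at an unadjusted limma p of 0.455. Atp5f1b, the catalytic beta subunit gene, had 3456, 3639 and 3368 in NT3 ovaries, against 3105, 4377 and 3142 in control ovaries, with control replicate 2 highest. Its log2 fold change was -0.004 ± 0.14, or 0.16 without that array. Atp5f1c, the gamma subunit gene of the rotor shaft, had 3999.7, 4262 and 4599 in NT3 ovaries, against 3637, 3922 and 4356 in control ovaries, and 0.11 ± 0.10. The 3 head genes thus had no called difference. The estimates for alpha and gamma stayed above 0 whichever single array was left out, which for alpha follows from its groups not overlapping. The same held for members of other complexes, among them Cyc1, Cox8a and Cox6a1, whose lowest estimates were 0.048, 0.078 and 0.049.

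The stalk and membrane subunits of complex V differed mainly in how far the control arrays spread. Atp5f1e, the epsilon subunit gene of the rotor, had 5268, 6688 and 5774 in NT3 ovaries, against 4488, 7854 and 6001 in control ovaries, where the controls spanned a wider range than the NT3 arrays, and its log2 fold change was -0.019 ± 0.19. Atp5me, the e subunit gene of the membrane part, had 816, 801 and 948 in NT3 ovaries, against 651, 1028 and 752 in control ovaries. As for Ndufab1, the NT3 arrays lay above control replicates 1 and 3 and below control replicate 2. Its log2 fold change was 0.10 ± 0.17, and leaving out control replicate 2 made it 0.28, at an unadjusted limma p of 0.0328 that adjustment took to 0.999. Atp5pf, coupling factor 6 of the outer stalk, had 2691, 2948 and 2817 in NT3 ovaries, against 2394, 2517 and 2979 in control ovaries, a log2 fold change of 0.10 ± 0.11. The membrane subunit genes Atp5mf, Atp5mg and Atp5mk had -0.044, -0.064 and -0.054, and all 3 came to lie above 0 without control replicate 2, at 0.086, 0.064 and 0.054. The inhibitor gene Atp5if1, whose product stops the enzyme from running in reverse, had 2039.7, 2387 and 2109.8 in NT3 ovaries, against 1898, 2177 and 2379.8 in control ovaries, and 0.021 ± 0.11. Its other 2 probe sets, both dim, had log2 fold changes of -0.053 and -0.24. The other 6 genes of the complex, Atp5f1d, Atp5mpl, the c-ring gene Atp5mc3 and the stalk genes Atp5pb, Atp5pd and Atp5po, had log2 fold changes of -0.017 to 0.027.

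Of the 10 further probe sets of the 9 genes that had more than 1, 4 agreed in direction with the one used, all 4 among the 6 above the signal filter. Another 7 probe sets with an oxidative phosphorylation symbol were left out because the annotation gave them more than 1 symbol. They included Atp5mc1, Atp5mc2, Cox7a2, Uqcrb, Ndufs5 and Ndufa10, each with a near copy, and their log2 fold changes ran from -0.16 to 0.082, with no unadjusted limma p below 0.446.

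Genes around the respiratory chain were taken from 6 lists, with 158 tested genes, of which limma called 0 at an adjusted p under 0.05 and 0 at an unadjusted p under 0.05, beside 1.29% of all probe sets. Their median log2 fold change was 0.014 for 16 citric acid cycle genes (9 higher, 7 lower), 0.068 for 17 genes of other electron carriers and substrate transport (14 higher, 3 lower), and -0.022 for 33 further assembly factor genes (12 higher, 21 lower). It was -0.003 for 73 mitochondrial ribosome genes (34 higher, 39 lower) and -0.072 for 17 nuclear regulators of mitochondrial genes (8 higher, 9 lower), or 0.008 without control replicate 2. The mitochondrial ribosome genes had the array pattern of complex I, with median deviations of -0.063, 0.023 and 0.016 in NT3 replicates 1, 2 and 3 and -0.13, 0.14 and 0.031 in control replicates 1, 2 and 3. Those of the citric acid cycle had -0.037, 0.045 and 0.057 in NT3 and 0.007, -0.059 and 0.026 in control ovaries. Like complex II they lay below their mean in control replicate 2. So did the oocyte, granulosa, stromal, macrophage and red blood cell precursor markers, but not the endothelial, muscle or fat markers. In NT3 replicate 2 complex II was at -0.033, on the other side of 0 from the citric acid cycle genes.

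Of these lists the genes with the lowest p-values were named. Gabpb1 encodes a subunit of GABP, a regulator of many respiratory chain genes, and had 240.1, 236 and 269 in NT3 ovaries, against 286, 303 and 309 in control ovaries. All NT3 arrays were below all controls, which held for 3.21% of all tested probe sets. Its log2 fold change was -0.27 ± 0.12, at an unadjusted limma p of 0.0532 that adjustment over all probe sets took to 1.00. Mrps2, of the small mitochondrial ribosome subunit, had 274, 265 and 280.4 in NT3 ovaries, against 327, 349.9 and 309 in control ovaries, likewise without overlap, with -0.26 ± 0.12 and an unadjusted limma p of 0.0506. The second genes of these lists were Twnk, the mitochondrial helicase gene, at -0.25 ± 0.14, and Mrpl2, of the large ribosome subunit, at -0.20 ± 0.12. In the other lists the pair with the lowest p-values was Suclg2 and Pdhb at 0.26 ± 0.14 and 0.22 ± 0.12 for the citric acid cycle, Acad9 and Ttc19 at -0.18 ± 0.12 and -0.21 ± 0.17 for assembly, and Coq9 and Etfa at -0.14 ± 0.11 and 0.14 ± 0.13 for electron carriers and transport. The groups also did not overlap for Twnk, Mrpl2, Acad9 and Coq9, with NT3 lower, and for Suclg2, with NT3 higher, beside 2.62% of all tested probe sets. These genes were picked for low p-values, and such genes were not counted over the whole lists. The complex IV core genes COX1 and COX2 of mitochondrial DNA, the 2 such genes in the annotation, had 16496, 18614 and 15542 in NT3 ovaries, against 15519, 20944 and 16317 in control ovaries, and 16481, 16988 and 14847 in NT3 ovaries, against 13946, 15851 and 15936 in control ovaries. Their log2 fold changes were -0.051 ± 0.13 and 0.080 ± 0.10, both smaller than their standard errors.

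The promoters hold features that played no part in the choice of members. Nuclear respiratory chain genes are known targets of the factors NRF1, GABP and YY1, whose motifs were searched on both strands. The GABP motif was CCGGAAG and the YY1 motif AAGATGGC, and the NRF1 motif was a consensus of GC-rich arms, whose matches stand in capitals in Ndufs6, Uqcrc1 and Atp5me shown here. The windows, from 250 bases before to 50 after each start, came from RefSeq on the GRCr8 assembly and were found for 78 of the 87 genes. The NRF1 motif stood in 15 of the 78 (19.2%), against 4.25% of all 33469 windows of the same length. The GABP motif stood in 22 (28.2%), against 8.75%, and the YY1 motif in 17 (21.8%), against 3.17%. At least 1 of the 3 stood in 56.4%, against 14.6%. Mean GC content was 56.2% in the members' windows, against 52.7% over all, and its part in these shares was not tested. The windows compared were not limited to genes on the array or to tested genes, so the shares are not matched for expression. A match describes the letters and shows no binding.

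**Figure D5:**
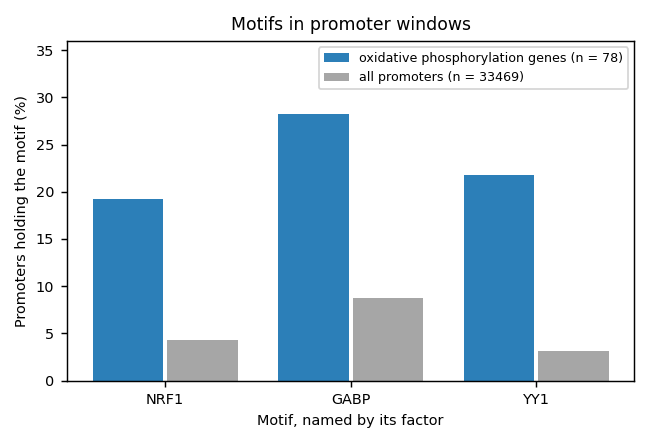
Share of promoter windows (%) that hold each motif, for the 78 windows of oxidative phosphorylation genes (blue) and all 33469 windows (grey). The members' windows show 19.2%, 28.2% and 21.8% for NRF1, GABP and YY1, against 4.25%, 8.75% and 3.17% of all windows.

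The motifs were spread unevenly over the complexes. Complex V had the NRF1 motif in 5 of 15 windows and complex I in 6 of 34, but complex IV in 0 of 13. The YY1 motif stood in 9 of 34 windows of complex I and in 1 of 13 of complex IV. With so few windows these differences were not tested. One window per complex is shown here, 5′ to 3′ on the gene's own strand, with the motif matches in capitals, chosen because Atp5me is the 1 member with all 3 motifs and the others hold 1 or 2 of them.
Ndufs6: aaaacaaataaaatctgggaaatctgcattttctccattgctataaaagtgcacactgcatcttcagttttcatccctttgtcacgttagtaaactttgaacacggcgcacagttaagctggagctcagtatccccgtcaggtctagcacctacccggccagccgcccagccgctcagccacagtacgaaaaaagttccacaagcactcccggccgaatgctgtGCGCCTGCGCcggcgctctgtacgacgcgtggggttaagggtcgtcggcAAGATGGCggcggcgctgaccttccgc
Sdhb: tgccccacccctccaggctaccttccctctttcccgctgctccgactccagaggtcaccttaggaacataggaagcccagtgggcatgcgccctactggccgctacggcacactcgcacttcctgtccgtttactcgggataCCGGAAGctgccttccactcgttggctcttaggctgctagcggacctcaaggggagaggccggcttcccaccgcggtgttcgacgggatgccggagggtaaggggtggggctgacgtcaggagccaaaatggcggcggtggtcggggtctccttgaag
Uqcrc1: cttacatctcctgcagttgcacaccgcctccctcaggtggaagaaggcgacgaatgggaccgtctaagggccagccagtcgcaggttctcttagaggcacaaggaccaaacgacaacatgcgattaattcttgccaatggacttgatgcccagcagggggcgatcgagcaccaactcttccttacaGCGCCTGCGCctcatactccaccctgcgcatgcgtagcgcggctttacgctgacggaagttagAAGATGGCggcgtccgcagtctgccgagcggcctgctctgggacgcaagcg
Cox8a: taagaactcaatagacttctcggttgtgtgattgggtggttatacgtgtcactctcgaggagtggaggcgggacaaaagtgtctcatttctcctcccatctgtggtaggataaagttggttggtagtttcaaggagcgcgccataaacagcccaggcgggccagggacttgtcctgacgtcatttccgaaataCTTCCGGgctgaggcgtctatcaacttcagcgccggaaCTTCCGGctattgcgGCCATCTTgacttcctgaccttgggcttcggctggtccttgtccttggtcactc
Atp5me: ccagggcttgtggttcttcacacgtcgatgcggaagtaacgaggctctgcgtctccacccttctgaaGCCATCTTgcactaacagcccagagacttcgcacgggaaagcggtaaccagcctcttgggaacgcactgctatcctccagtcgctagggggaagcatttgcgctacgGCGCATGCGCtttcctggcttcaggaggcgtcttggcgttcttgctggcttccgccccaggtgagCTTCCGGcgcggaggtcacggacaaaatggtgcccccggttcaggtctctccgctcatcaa
They lie at chr1:31797150-31797449 (+ strand) for Ndufs6, chr5:158547684-158547983 (+ strand) for Sdhb, chr8:118467973-118468272 (+ strand) for Uqcrc1, chr1:213833574-213833873 (- strand) for Cox8a and chr14:1464610-1464909 (+ strand) for Atp5me. Capitals mark an NRF1 and a YY1 match in Ndufs6 and Uqcrc1, a GABP match in Sdhb, a pair of GABP matches and a YY1 match in Cox8a, and a match to each motif in Atp5me, and none of them overlap.

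Fold changes with and without each motif are given as a description, and their differences were not tested. Of the tested genes with a window, the 22 with a GABP motif had a median log2 fold change of 0.014 and the 53 without it -0.016. The 15 with an NRF1 motif had 0.011 and the 60 without it -0.003, and the 16 with a YY1 motif had 0.008 and the 59 without it -0.004.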

How the data were processed

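The 6 samples were read on Affymetrix 1-colour arrays of biotin-labelled cRNA from total RNA. Per the submitters' processing notes, the authors made the deposited intensity values with MAS5 (version not given in the sources used here), as 1 signal per probe set on a linear scale. The 57 array control probe sets were removed, and the other 31042 were put on the log2 scale without rescaling, a 0 in any of 5 probe sets being set to 0.1. Only probe sets at or above the 40th percentile of mean log2 signal (signal 41.3) entered the tests, 18625 in all. No detection calls were used.

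NT3 was compared with control by limma 3.58.1 in R 4.3.3 (lmFit, eBayes with an intensity trend), 2-sided, with Benjamini-Hochberg adjustment over all tested probe sets at 0.05. The code of the fit was checked on simulated data with independent noise. Those data held no shared array shifts, paired replicates or array of low RNA quality, so the check does not cover these features. Names came from the array annotation (1 symbol for 20826 probe sets, several for 436), and all 87 members were found by Entrez identifier in the RefSeq table of GRCr8. The members and gene lists were chosen with earlier results of these data known. Genes described by array were, per complex, the 3 with the lowest p in each direction, the catalytic and electron-carrying subunits, the tissue forms of complex IV, members with an unadjusted p under 0.05 with all arrays or without control replicate 2, and in each other list the 2 with the lowest p. Atp5f1e, Atp5if1, Uqcr10, Uqcr11 and Ndufa4l2 were added after their values were seen.

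Arrays with the same replicate number deviated together from their group means (correlations of 0.230, 0.247 and 0.222, and at most 0.029 for other pairs). This pairing comes from the data and not from the labels. The main fit did not use it, and the replicate block that does was an alternative. The alternatives were a replicate block, other scalings, filters and offsets, no variance trend, array weights, the mean of all probe sets and each array left out.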

Additional observations from a re-analysis of the deposited data

How the results depend on the processing

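The count of oxidative phosphorylation genes with an adjusted p under 0.05 was 0, and so was that of the genes around the respiratory chain, under all 17 alternatives. Over all probe sets the count was 0 with all arrays and with the replicate block, and 4 in the fit with the replicate block without control replicate 2, which rests on 2 pairs of arrays. The replicate block changed no call of a member. The median log2 fold change of the members was -0.001, and -0.088 to 0.065 with single arrays left out. It was 0.041 with array weights, -0.024 after quantile normalization and 0.008 after centring on the median, all within 0.125, the standard deviation of array medians within groups. Members higher and lower numbered 63 and 21 with array weights, against 41 and 43. Members with an unadjusted p under 0.05 numbered 1 with array weights, 1 with no filter, where Cox8b enters, and 2 without control replicate 2, with or without the block. Probe sets with an unadjusted p under 0.05 numbered 240, against 401 with the block, 656 and 420 without control replicate 2 and without control replicate 3, 962 with the block and without control replicate 2, 514 without both arrays numbered 2, 585 with array weights, 752 with no filter, 123 with a filter at the 60th percentile and 377 without the variance trend. For the 42 named and tested genes, 709 of 711 alternative values lay within 1 standard deviation of replicates from the value given, and the other 2 came from fits without control replicate 2. This count was largely fixed in advance. Leaving out 1 of 3 arrays moves a group mean by less than that standard deviation. Filters, the variance trend and the block with all arrays leave a gene's estimate unchanged. A similar limit applies to the medians set against 0.125, so neither is a test of robustness. Members with low signals, such as Cox8b and Cox7a1, could not be measured reliably here.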
